A study of Mus musculus with 8 samples.

Results

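A set of 10 genes of MHC class I antigen presentation was followed through RNA sequencing of mouse splenic B cells: the heavy chain genes H2-K1 and H2-D1, the light chain gene B2m, the peptide transporter genes Tap1 and Tap2, the loading factor gene Tapbp, the immunoproteasome genes Psmb8, Psmb9 and Psmb10, and the transcriptional activator gene Nlrc5. They were chosen by name, and all 10 were found among the 41250 genes listed and among the 14789 genes with enough counts for a test. Spleens came from 4 genotypes, wild-type and homozygotes for a 3'RR deletion, an hs3b-hs4 deletion or a 3'PAL deletion, all with the strain written in the labels as mixed background 129/C58BL/6. The 3'RR is a group of enhancers at the 3' end of the immunoglobulin heavy chain locus, away from all genes of the set. Its deletion takes hs3b and hs4 with it, the hs3b-hs4 deletion takes these enhancers alone, and the 3'PAL deletion alters the palindromic layout but leaves the enhancers in place. Resting cells were taken fresh after a density gradient and removal of CD43-positive cells, and stimulated cells had 48 hours of culture with 5 µg/mL lipopolysaccharide (LPS), a bacterial cell wall component sensed by TLR4, and a further gradient. Each genotype and state gave 1 library from a pool of 4 animals, so there were 8 libraries, and within a state no genotype had a replicate. The labels do not say whether both pools of a genotype shared animals. Unless named, values of 4 libraries follow in the order wild-type, 3'RR deletion, hs3b-hs4 deletion, 3'PAL deletion. Since the background is mixed, strain differences between the mouse lines and effects of a deletion cannot be told apart. No library came from cells cultured without LPS, so effects of LPS, of culture and of the further gradient cannot be told apart either. The word stimulation stands below for all of these together.

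The gene counts summed to between 17883683 and 28785192 per library. The sum of 8 B cell markers was 3517 to 3685 CPM (counts scaled to a common library size, with TMM factors) in resting and 2508 to 3130 CPM in stimulated libraries. Other cells left traces in the resting libraries. The sum of 14 monocyte and macrophage markers was 510.4, 1793, 761 and 397 CPM in resting cells, and 12.7 to 23.1 CPM in stimulated cells, where 9 of the 14 were under 1 CPM in every library. Red cell markers summed to between 3113 (wild-type) and 21609 CPM (3'PAL deletion) in resting and 10.4 to 244 CPM in stimulated libraries. The wild-type resting library stood apart by a further sign, with 1.94% of its counts assigned to the gene AY036118, against at most 0.0842% in any other library. In these bulk libraries, fewer cells of a type and less RNA per cell cannot be told apart.

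MHC class I molecules show peptides from the cell's own proteins to CD8 T cells. Proteasomes cut the proteins, the TAP transporter carries the peptides into the endoplasmic reticulum, and the tapasin complex loads them onto a heavy chain paired with beta 2 microglobulin. In cells exposed to interferon, and in lymphocytes at rest, the catalytic subunits of the standard proteasome are partly replaced by immunoproteasome subunits: Psmb8 encodes the counterpart of Psmb5, Psmb9 that of Psmb6 and Psmb10 that of Psmb7. Nlrc5 encodes an activator that reaches class I promoters through factors bound to their X and Y boxes, and NF-kB and interferon regulatory factors bind elements further upstream.

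In the GRCm38 coordinates of the count table, 7 of the members lay on chromosome 17. Psmb9, Tap1, Psmb8 and Tap2 sat within 34.3 kb, from position 34181988 to 34216321. H2-K1 (33996017 to 34000333, minus strand) and Tapbp (33915899 to 33929288, plus strand) lay to one side of this cluster and H2-D1 (35262730 to 35267499, plus strand) to the other. B2m was on chromosome 2 (122147686 to 122153083), and Psmb10 (105935728 to 105938392) and Nlrc5 (94472763 to 94527272) on chromosome 8. All 10 are protein-coding in GENCODE M21. The exons of Tap1 and Psmb9 overlapped on opposite strands over 212 bases, 3.87% of the Tap1 and 5.79% of the Psmb9 exon length. Tapbp shared 665 bases (20.2% of its exon length) with an antisense gene, and Tap2 shared 533 bases (14.1%) with another. The kit keeps the strand, but no label records the strand setting of the counting, so reads in these stretches are uncertain. H2-K1 and H2-D1 resemble each other and other class I genes, and reads may be split between them.

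The promoters of H2-K1 and B2m are shown because of how their annotation lies. Of the members with a RefSeq start site, only these had a long unbroken stretch outside annotated exons before it (236 and 249 bases). The genes encode the heavy and light chain of 1 complex from different chromosomes. Each run is the part of the 250 bases before the RefSeq start site (GRCm38.p6) that lies outside annotated exons, read 5′ to 3′ on the strand of the gene: chr17:34000348-34000583 on the minus strand for H2-K1 and chr2:122147437-122147685 on the plus strand for B2m. Capitals mark matches, on either strand, to 7 motifs: the NF-kB palindrome of class I enhancers (the run of 11 capitals in H2-K1), an NF-kB site of the kappa enhancer type (the run of 10 capitals after the response element in B2m, read on the other strand), the interferon-stimulated response element (GAAA, any 2 bases, GAAA), a shorter element of interferon regulatory factors (GAA, any 2 bases, GAAA), the Y box (CCAAT), the core of X2 boxes and CREB sites (TGACG) and the TATA box (TATAAA).
H2-K1: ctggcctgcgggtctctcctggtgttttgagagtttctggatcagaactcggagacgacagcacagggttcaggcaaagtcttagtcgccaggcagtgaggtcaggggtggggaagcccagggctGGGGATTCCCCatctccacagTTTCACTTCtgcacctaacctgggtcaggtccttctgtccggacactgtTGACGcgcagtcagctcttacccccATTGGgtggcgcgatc
B2m: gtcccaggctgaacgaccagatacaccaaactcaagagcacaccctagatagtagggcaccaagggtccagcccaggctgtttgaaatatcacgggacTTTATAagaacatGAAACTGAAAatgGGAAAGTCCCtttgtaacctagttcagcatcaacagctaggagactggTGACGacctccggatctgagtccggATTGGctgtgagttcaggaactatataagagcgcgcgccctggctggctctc

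Windows of 300 bases (250 before and 50 after a start site) were searched for all 8 members with a RefSeq entry; Tap2 and Nlrc5 had none. The windows of H2-K1 and H2-D1 were alike, with 222 of 253 aligned bases identical (87.7%), and held 5 kinds of match in the same order. The NF-kB palindrome was present in these 2 member windows and in 0.0304% of all 32851 windows. B2m held the kappa type site instead, which 0.155% of windows held, next to an interferon-stimulated response element, found in 3.44%. The Y box stood in 6 of 8 member windows and in 37.4% of all windows, and the X2 core in 5 of 8 and in 20.8%. The short interferon element was in 2 member windows (7.52% of all) and the letters of the TATA box in 4 (13.6%). Counted from the start site, these letters began at -26 in H2-D1, at 21 in H2-K1 and at -237 in Psmb8. In B2m they began at -152 on the other strand. The start sites of Tap1 and Psmb9 were 226 bases apart on opposite strands, so their windows shared 275 bases, and the Y box and X2 core counted for each are the same letters. None of these motifs was found in the window of Psmb10, and Tapbp and Psmb8 held 1 kind each. The RefSeq start lay inside the gene as listed in the count table for H2-D1 (by 364 bases), Psmb9 (434), Psmb8 (474) and Tapbp (3579), so other starts of these genes were not searched. A match describes letters and does not show that a factor binds.

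**Figure D1:**
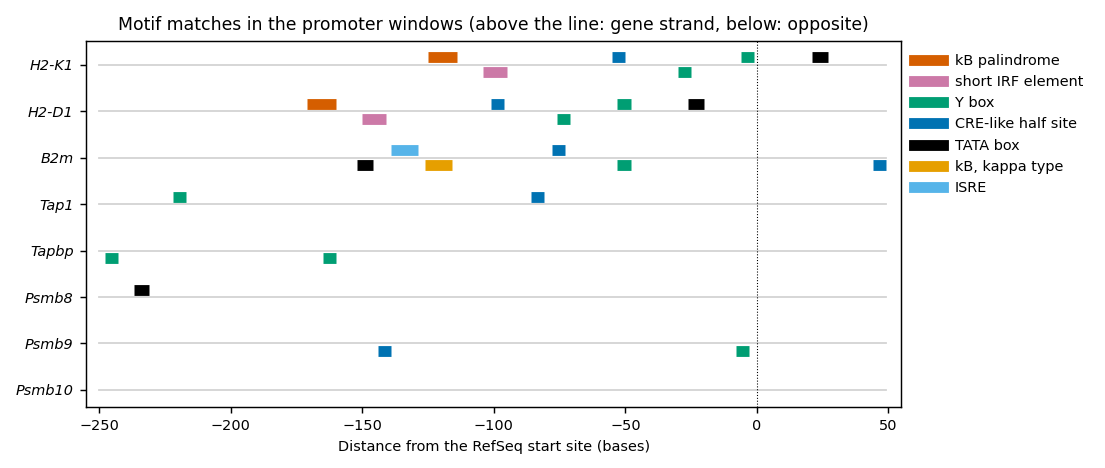
Position of motif matches (coloured blocks) in the promoter windows of 8 members, in bases from the RefSeq start site; blocks above a line are on the strand of the gene and blocks below it on the other strand. H2-K1, H2-D1 and B2m carry 5 kinds of match each, and Psmb10 carries none.

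Levels per transcript length, in TPM (kallisto's transcript abundance, scaled to a common total in each library), put the members in an order that changed little between libraries. B2m was highest, with a median of 1338 TPM over the 8 libraries (832 to 1941), followed by H2-K1 with 624 TPM (401 to 979.9) and H2-D1 with 450 TPM (286 to 724). Psmb8 had a median of 188 TPM (68.4 to 232), Tapbp 101 TPM (58.5 to 127), Psmb9 79.8 TPM (29.9 to 102) and Tap1 63.9 TPM (35.2 to 94.7). Psmb10 (45.6 TPM, 25.9 to 66.8), Tap2 (31.9 TPM, 23.6 to 48) and Nlrc5 (18.4 TPM, 14.5 to 37) were the lowest. Each neighbour in this order was above the next in 8 of 8 libraries, except Psmb9, which was above Tap1 in 5 of 8. The ranges of most neighbours overlap because TPM differ between libraries as a whole. In the wild-type resting library all 10 members had their lowest resting TPM, which was not so for CPM, so TPM are compared here only within a library. B2m, for instance, was there at 832 TPM, against 1941, 1321 and 1355 TPM in resting 3'RR, hs3b-hs4 and 3'PAL deletion cells. In that library the gene Lars2 alone held 2.77% of TPM, against 0.0189 to 0.399% in the others. The part of Lars2 in the low values was not tested.

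With stimulation the 10 genes divided (edgeR quasi-likelihood test with genotype and state as terms, Benjamini-Hochberg adjusted p under 0.05). Psmb8, Psmb9, Tap1 and Tapbp rose, and H2-K1, H2-D1 and Nlrc5 fell. B2m, Tap2 and Psmb10 did not pass. These 7 called members of 10 stand against 69.7% of all genes called, 34.5% higher and 35.2% lower, so the count is near the background. At an unadjusted p under 0.05 the same number of members passed, against 72.2% of genes. Their median log2 fold change was -0.09, against -0.02 over all genes tested. In 3 members, Tapbp, Psmb8 and Psmb9, every stimulated library was above every resting one, as in 30.8% of genes; the other 7 overlapped, and none had all stimulated libraries lower, as 31.3% of genes had.

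The heavy chain and light chain genes carried most class I transcripts. H2-K1 stood at 795, 1118, 843 and 927 CPM in resting cells and at 508, 766, 604 and 904 CPM after stimulation. It was lower after stimulation in each genotype, although in 3'PAL deletion cells the ratio of 0.975 became 1.02 with scaling by library size alone and 1.06 with kallisto counts, and these cells lay within the resting range. The log2 fold change was -0.43 ± 0.121 (SE; edgeR adjusted p = 0.016). H2-D1 stood at 749.6, 979.5, 718 and 795 CPM in resting and at 440, 707, 515 and 751 CPM after stimulation. Its fold change was -0.45 ± 0.123 (edgeR adjusted p = 0.013), with all 4 genotypes lower, although 3'PAL deletion cells were again within the resting range and turned to 1.03 times with kallisto counts. B2m, which encodes beta 2 microglobulin, stood at 805, 1024, 737 and 829 CPM and then at 557, 875, 670.1 and 854 CPM. It was lower in 3 genotypes and slightly higher in 3'PAL deletion cells, and its fold change of -0.21 ± 0.114 did not pass (edgeR adjusted p = 0.13).

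Whether the falls of H2-K1 and H2-D1 were called depended on the libraries used. Without the wild-type resting library the values were -0.35 (edgeR adjusted p = 0.063) and -0.34 (0.052), and without both hs3b-hs4 deletion libraries -0.40 (0.076) and -0.43 (0.065). Over 11 other settings H2-K1 was called in 6 and H2-D1 in 8, always with a negative value. These values ran from -0.57 to -0.29 for H2-K1 and from -0.59 to -0.31 for H2-D1. Stimulated over resting, H2-K1 was 0.638 in wild-type cells (95% interval 0.624 to 0.653) and 0.975 in 3'PAL deletion cells (0.958 to 0.993), and H2-D1 was 0.587 (0.573 to 0.601) and 0.944 (0.926 to 0.963). These intervals cover counting error only, since each value rests on 1 pair of libraries and PCR copies are not independent molecules.

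Genes of peptide transport and loading rose slightly or did not pass. Tap1 stood at 124, 169, 116 and 126 CPM in resting cells and at 144, 179.5, 169 and 216 CPM after stimulation. Every genotype was higher after stimulation, least in 3'RR deletion cells (1.06 times, 1.02 to 1.1, but 0.985 with scaling by library size alone) and most in 3'PAL deletion cells (1.72 times, 1.64 to 1.79). Its log2 fold change was 0.41 ± 0.126 (edgeR adjusted p = 0.023). Tapbp, which encodes tapasin, went from 168, 181, 168 and 158 CPM to 184, 208, 219 and 236 CPM (0.32 ± 0.0978, edgeR adjusted p = 0.021). The groups did not overlap, with the widest gap in 3'PAL deletion cells. Tap2, the partner of Tap1 in the transporter, was at 74.6, 92.9, 84.8 and 73.8 CPM and then at 62.5, 73, 75.9 and 84.2 CPM (-0.14 ± 0.103, adjusted p = 0.25). It was lower in 3 genotypes and higher in 3'PAL deletion cells.

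The calls of Tap1 and Tapbp also depended on the libraries and the scaling. Without the 3'PAL deletion libraries Tap1 was at 0.27 (edgeR adjusted p = 0.077) and Tapbp at 0.22 (0.079), while Tap2 passed at -0.27 (0.027). Without the hs3b-hs4 deletion libraries they were at 0.37 (0.074) and 0.31 (0.078), and without the 3'RR deletion libraries Tapbp was at 0.32 (0.063). Scaling by library size alone gave 0.34 (0.075) and 0.25 (0.089).

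The immunoproteasome genes showed the firmest rises and 1 that did not pass. Psmb8 stood at 106, 143, 115 and 114 CPM in resting cells and at 237, 244, 228 and 217 CPM after stimulation. All 4 stimulated libraries lay together and far above the resting ones (0.96 ± 0.0903, edgeR adjusted p = 8.2e-05). Psmb9 went from 41.8, 65.5, 47.5 and 44.5 CPM to 72.3, 81.7, 84.5 and 93.3 CPM (0.75 ± 0.124, edgeR adjusted p = 0.0013), again without overlap. These 2 genes passed in each of 11 other settings, with log2 fold changes of 0.89 to 1.06 for Psmb8 and 0.63 to 0.86 for Psmb9. Psmb10 was at 39.7, 57.2, 48.6 and 40.5 CPM and then at 40.4, 49.3, 45.7 and 43.9 CPM. Every stimulated library lay within its resting range (-0.04 ± 0.0847, adjusted p = 0.69), passed in none of the 11 settings and ran from -0.11 to 0.07 among them.

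Nlrc5 fell by 0.34 ± 0.11 on the log2 scale (edgeR adjusted p = 0.027). Its levels were 92.7, 125, 64 and 77.2 CPM in resting cells and 67.9, 81.8, 63.5 and 64.1 CPM after stimulation. The resting libraries differed by 1.96 times between the highest and the lowest, the widest spread of any member in a state, and hs3b-hs4 deletion cells hardly moved (0.992 times, 0.926 to 1.06). Leaving out the wild-type resting library or both wild-type libraries gave nearly the same fit for stimulation, so these settings are not separate evidence. The fall was called in 6 of 11 other settings. It did not pass without the wild-type resting library (-0.29, edgeR adjusted p = 0.092), without both wild-type libraries (-0.30, 0.085) or without the 3'RR deletion libraries (-0.28, 0.094).

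**Figure D2:**
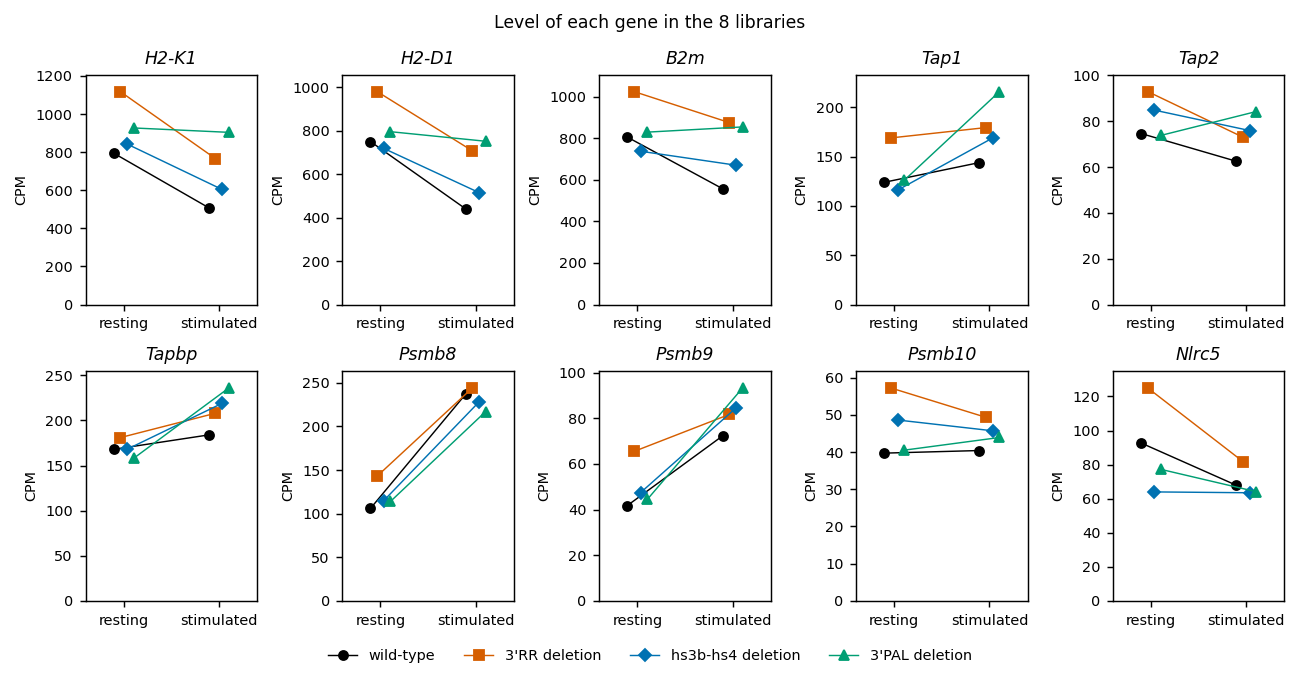
Level in CPM (vertical axes, starting at 0) of each of the 10 genes in resting and stimulated B cells; each point is 1 library and each line joins the libraries of 1 genotype. Psmb8, Psmb9 and Tapbp rise without overlap, and the resting 3'RR deletion library is the highest of the resting libraries in each of the 10 genes.

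Counting by another method bore on the falls. With kallisto estimated counts summed per gene, the fold changes were -0.29 for H2-K1 (edgeR adjusted p = 0.076), -0.31 for H2-D1 (0.066) and -0.23 for Nlrc5 (0.086), none of them called, while the 4 rises held. The median difference, gene by gene, between fold changes from that method and those above was 0.11 on the log2 scale.

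The genes of all 3 standard catalytic subunits rose. Psmb5, which encodes the chymotrypsin-like subunit, had a log2 fold change of 2.03 ± 0.135 (edgeR adjusted p = 2.2e-05), Psmb6 of 0.93 ± 0.0934 (0.00011) and Psmb7 of 1.54 ± 0.112 (2.9e-05). Within a library the TPM ratio of Psmb8 to Psmb5 was 4.67, 4.05, 4.1 and 4.32 in resting cells and 1.82, 2.07, 2.02 and 2.4 after stimulation. It was lower after stimulation in 4 of 4 genotypes, by a mean of -1.05 on the log2 scale (SD 0.218, n = 4). The ratio of Psmb10 to Psmb7 went from 0.827, 0.995, 0.852 and 0.715 to 0.235, 0.3, 0.284 and 0.346, a mean change of -1.54 (SD 0.345, n = 4), also lower in 4 of 4. Psmb9 over Psmb6 was 0.495, 0.606, 0.433 and 0.451 and then 0.341, 0.393, 0.404 and 0.51. It was lower in 3 genotypes and higher in 3'PAL deletion cells, with a mean of -0.27 (SD 0.377, n = 4). An exact two-sided sign-flip test over 4 genotypes cannot go below p = 0.125, which the first 2 ratios reached, and it gave 0.375 for the third; with 7 ratios in the family no value could pass.

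**Figure D3:**
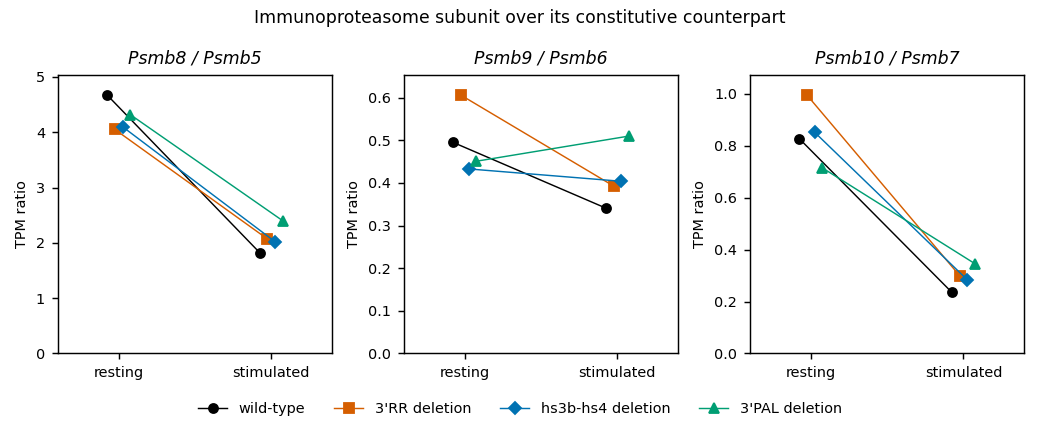
TPM of each immunoproteasome subunit gene over that of its standard counterpart (vertical axes, starting at 0) in resting and stimulated cells; each point is 1 library and each line 1 genotype. Psmb8 over Psmb5 and Psmb10 over Psmb7 are lower after stimulation in each genotype, and Psmb9 over Psmb6 is not lower in 3'PAL deletion cells.

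Ratios inside the class I pathway also shifted. H2-K1 over B2m was 0.482 to 0.53 in resting and 0.405 to 0.497 in stimulated libraries (mean log2 change -0.23, SD 0.145, n = 4), and H2-D1 over B2m 0.363 to 0.375 and 0.287 to 0.337 (-0.28, SD 0.119). Tap2 over Tap1 moved from 0.585 to 0.741 to 0.431 to 0.499 (-0.49, SD 0.0592), lower in 4 of 4 genotypes like both of the former. The 2 heavy chain genes kept close to each other, with H2-D1 over H2-K1 at 0.701 to 0.779 and 0.678 to 0.742 (-0.05, SD 0.0645). An exact sign-flip test gave p = 0.125 for the first 3 of these, the smallest it can give, and 0.25 for the last.

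Among transcripts of the same gene, estimated by the authors with kallisto, the main form took a larger share after stimulation in 4 of 4 genotypes for H2-K1, H2-D1, Tap1, Tapbp and Psmb9, and not in all genotypes for Tap2, Psmb8 and Nlrc5. ENSMUST00000025181 made up 67.7 to 71.3% of H2-K1 TPM in resting and 74.8 to 78.6% in stimulated libraries, a mean change of 6.9 percentage points (SD 0.346, n = 4). For H2-D1 the share of ENSMUST00000172785 went from 81.6 to 82.5% to 85.4 to 87.7% (4.21 points, SD 0.892, n = 4). A minor H2-K1 transcript, ENSMUST00000114311, went from 4.97 to 6.04% to 1.66 to 2.28%. The main forms of Psmb9, Tap1 and Tapbp gained 6.44 (SD 5.11), 4.78 (SD 3.57) and 1.99 points (SD 0.739, n = 4 each). All 6 changes given with values had 1 direction in 4 of 4 genotypes, so their exact sign-flip p is the smallest possible, 0.125, by that choice. Further transcripts of the members also moved 1 way in 4 of 4 genotypes, and many did not. With so many transcripts no value could pass. How often main forms gain share over all genes was not examined. B2m and Psmb10 have a single transcript in that table.

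Other genes of the pathway were taken from lists chosen by function. Of 10 peptide loading and trimming genes 9 rose and none fell, among them Pdia3, a disulfide isomerase of the loading complex (1.55 ± 0.0863, edgeR adjusted p = 1.3e-05), the chaperones Calr (1.28 ± 0.0824, 2e-05) and Canx (1.48 ± 0.103, 2.5e-05), and P4hb (1.34 ± 0.0909, 2.3e-05). Lnpep, an endosomal aminopeptidase, did not pass (0.04 ± 0.0785). The list's median was 0.99, against -0.02 over all genes. All 9 proteasome activator and assembly genes rose (median 1.01), as in the assembly factors Pomp (1.43 ± 0.0897, edgeR adjusted p = 1.9e-05), Psmg1 (1.85 ± 0.123, 2.2e-05) and Psmg2 (1.10 ± 0.132, 0.00026) and the activator Psme4 (0.79 ± 0.0732, 7.5e-05). Of 8 cytosolic peptidases 7 rose (median 0.91), with Thop1 (2.24 ± 0.114, adjusted p = 9.8e-06), Blmh (1.36 ± 0.0897, 2.2e-05), Prep (1.10 ± 0.0898, 4.5e-05) and Lap3 (1.62 ± 0.143, 6.1e-05) ahead. Background calls in the upward direction were 34.5%.

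**Figure D4:**
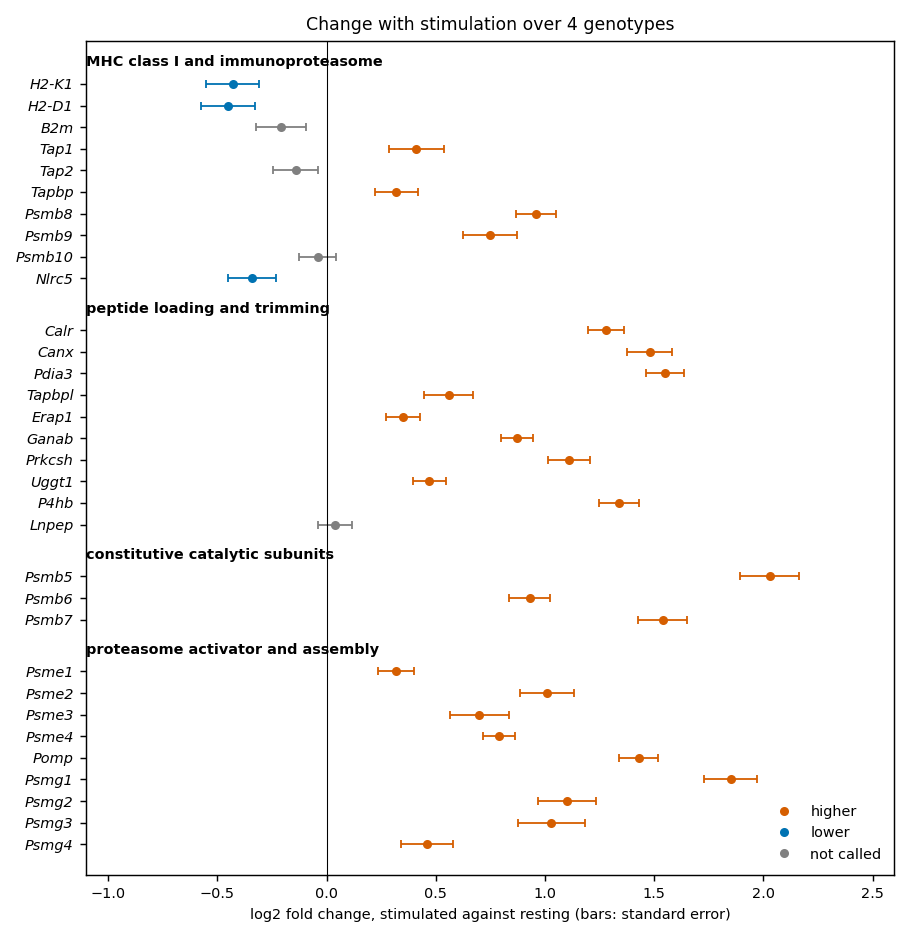
Log2 fold change (horizontal axis, bars are standard errors) of the 10 members and of 3 lists of pathway genes, stimulated against resting over 4 genotypes; orange marks genes called higher, blue lower and grey not called. The members range from -0.45 (H2-D1) to 0.96 (Psmb8), and the standard catalytic subunits lie at 2.03 (Psmb5), 0.93 (Psmb6) and 1.54 (Psmb7).

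Nonclassical class I genes fell or did not pass. Of 19 on the list 18 were in the table and 16 had enough counts; 11 of these fell and none rose (median -0.79; 35.2% of all genes fell). Cd1d1, which presents lipids to NKT cells, went from 45.3 to 53.7 CPM to 7.9 to 10.8 CPM (-2.47 ± 0.105, edgeR adjusted p = 6.7e-06), and H2-K2 from 53.8 to 60.6 to 7.54 to 16.2 CPM (-2.46 ± 0.198, adjusted p = 4.3e-05). Fcgrt, the heavy chain of the neonatal Fc receptor, was at 10.3 to 38 CPM in resting and 0.53 to 1.6 CPM in stimulated libraries (-4.47 ± 0.173, adjusted p = 5.2e-06). H2-M2 was at 11.4, 8.04, 62.4 and 9.68 CPM in resting libraries and at 0.0372 to 0.198 CPM in stimulated ones, about the level of 3 counts (0.106 to 0.156 CPM). With stimulation 14 of 14 macrophage markers and 7 of 8 dendritic cell markers fell as well; their part in these falls was not tested. Among resting libraries Fcgrt was highest in 3'RR deletion cells, as the macrophage markers were, whereas H2-M2 was lowest there and highest in hs3b-hs4 deletion cells.

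The regulators of class I genes were divided, with 5 higher, 5 lower and 9 not called of 19 (median 0.05), so that fewer were called than the 69.7% over all genes. Irf1, an interferon regulatory factor that binds class I and immunoproteasome promoters, went from 105 to 165 CPM to 32.8 to 53.9 CPM (-1.59 ± 0.111, edgeR adjusted p = 2.6e-05). Ciita, the class II activator related to Nlrc5, fell by 1.44 ± 0.14 (adjusted p = 9.9e-05). Ezh2, a histone methyltransferase of dividing B cells, and Prdm1, a repressor that drives plasma cell fate, rose by 3.09 ± 0.188 (1.7e-05) and 2.68 ± 0.196 (3e-05). The other falls were Irf2, Rfx5 and Rela, and the other rises Nfyb, Atf1 and Nfkb1. Of 7 interferon gamma signalling genes with enough counts 5 fell and none rose (median -0.57; 35.2% of all genes fell): the receptor genes Ifngr1 (-2.26 ± 0.133, edgeR adjusted p = 1.5e-05) and Ifngr2 (-0.50 ± 0.0758, 8e-04), the kinase genes Jak1 (-0.84 ± 0.0945, 0.00019) and Jak2 (-1.58 ± 0.0792, 9.4e-06), and Socs1.

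Deletions were compared with wild-type over both states in the same fit, which assumes the same change in each state. No member was called for any deletion, while 1.89% of all genes were called for the 3'RR deletion (128 higher and 151 lower, or 75 and 147 with scaling by library size alone), 0.135% for the hs3b-hs4 deletion and 0.514% for the 3'PAL deletion. DESeq2 also called none of the members. In simulated counts the edgeR fit called 18% of 1.5-fold changes for the 3'RR deletion, so changes of that size would mostly be missed. At an unadjusted p under 0.05 there were 5 members for the 3'RR deletion, 0 for the hs3b-hs4 deletion and 2 for the 3'PAL deletion, against 13.7%, 8.9% and 9.55% of all genes. In 3'RR deletion cells the median member was at 0.40 on the log2 scale, against 0.05 over all genes; values ran from 0.14 ± 0.138 for Tapbp (edgeR adjusted p = 0.72) to 0.54 ± 0.171 for H2-K1 (0.22), and Psmb10 had the lowest adjusted p (0.41 ± 0.12, 0.19). In 3'PAL deletion cells the median was 0.23 (0.03 over all genes), with H2-K1 at 0.54 ± 0.172 (edgeR adjusted p = 0.35) and Nlrc5 at -0.17 ± 0.154 (0.77). The hs3b-hs4 deletion gave a median of 0.10 (0.04 over all genes), with Nlrc5 the lowest at -0.31 ± 0.155 (edgeR adjusted p = 0.65). These comparisons share the wild-type libraries, so they are not independent of each other. None of the other pathway genes on the lists was called for a deletion. Of the marker genes, Slc4a1, a red cell membrane protein, was the only one called for the hs3b-hs4 deletion (1.78 ± 0.192, edgeR adjusted p = 0.032), and 9 red cell markers were called for the 3'PAL deletion. Slc4a1 was at 16.6 CPM in resting wild-type and 57.9 CPM in resting hs3b-hs4 deletion cells, but at 0.0352 and 0.0396 CPM after stimulation. Its call thus rests on the resting libraries. Of the 10 red cell markers, 5 were under 1 CPM in every stimulated library.

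Within each state, each deletion library was set against the wild-type library as a ratio without a test. None of the 60 ratios reached 2-fold, a size that 3.23%, 2.04% and 2.02% of genes passed in resting and 1.81%, 0.811% and 1.72% in stimulated 3'RR, hs3b-hs4 and 3'PAL deletion cells. In resting 3'RR deletion cells all 10 members were above wild-type, as were 58% of genes tested, with a median ratio of 1.35 (1.04 over all genes). Psmb9 was the highest at 1.57 (95% interval 1.44 to 1.7), then Psmb10 at 1.44 (1.32 to 1.57) and H2-K1 at 1.41 (1.38 to 1.43), and Tapbp the lowest at 1.07 (1.03 to 1.12). In resting hs3b-hs4 deletion cells 5 members were above wild-type (58.1% of genes), from Nlrc5 at 0.69 (0.645 to 0.738) to Psmb10 at 1.22 (1.12 to 1.34). Resting 3'PAL deletion cells had 7 members above (57.5% of genes), between Nlrc5 at 0.833 (0.78 to 0.889) and H2-K1 at 1.17 (1.14 to 1.19), with 4 of the 7 intervals above 1; with scaling by library size alone, 6 of these 7 ratios were under 1.

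In stimulated 3'RR and 3'PAL deletion cells H2-K1, H2-D1 and B2m had the highest ratios to wild-type of the 10 members. For the 3'PAL deletion H2-K1 stood at 1.78 times wild-type (1.74 to 1.82), H2-D1 at 1.71 (1.67 to 1.75), B2m at 1.53 (1.5 to 1.56) and Tap1 at 1.5 (1.44 to 1.56), whereas Psmb8 was at 0.914 (0.883 to 0.946). In 3'RR deletion cells H2-D1 was at 1.61 (1.57 to 1.64), B2m at 1.57 (1.54 to 1.6) and H2-K1 at 1.51 (1.48 to 1.54), and Psmb8 at 1.03 (0.994 to 1.06). The hs3b-hs4 deletion gave values between 0.935 (Nlrc5) and 1.21 (Tap2). Counts of members above wild-type were 10, 8 and 8 for the 3'RR, hs3b-hs4 and 3'PAL deletions, against 50.2%, 51.4% and 53.4% of genes, with medians of 1.21, 1.17 and 1.32.

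**Figure D5:**
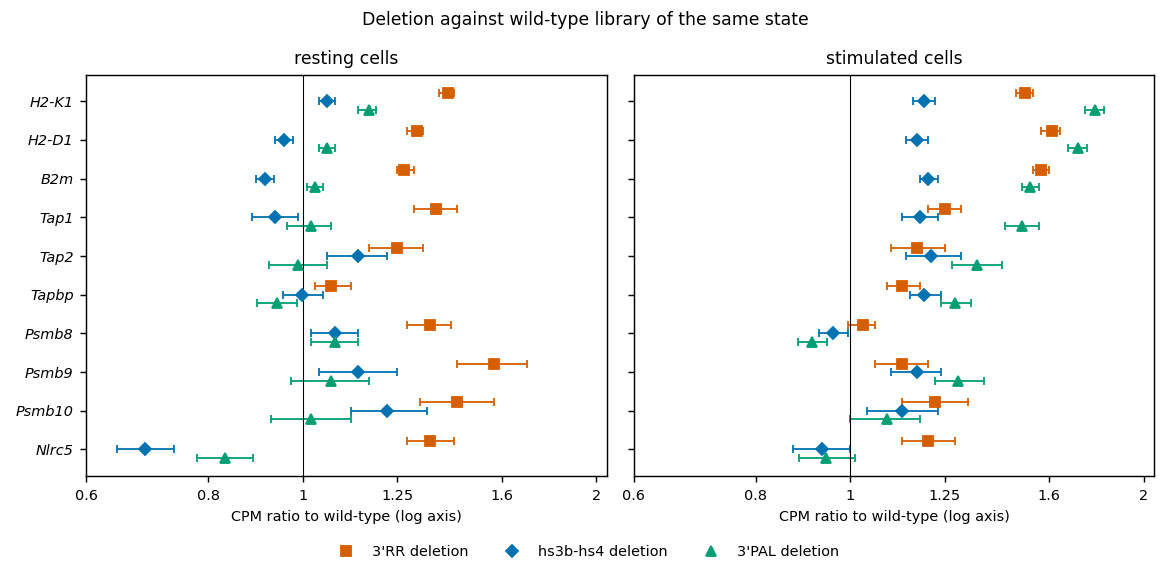
Ratio of each deletion library to the wild-type library of the same state for the 10 members (log axis; bars are 95% counting intervals, 1 library each). All squares (3'RR deletion) lie above 1 in both panels, and in stimulated cells the triangles (3'PAL deletion) of H2-K1, H2-D1, B2m and Tap1 reach 1.5 to 1.78.

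The resting 3'RR deletion library was the highest of the 4 resting libraries for all 10 members, as it was for 31.5% of genes tested, and it held this place with each of 3 other scalings or counts. It was also the library with the most macrophage transcripts: all 14 macrophage markers were highest there, with a sum of 1793 CPM against 397 to 761 CPM in the others, as were 7 of 8 dendritic cell markers. For the 3'RR deletion over both states, 9 macrophage markers, 9 red cell markers and the T cell marker Cd8a (2.01 ± 0.368, edgeR adjusted p = 0.049) were called. Several of these calls rest mostly on the resting libraries. Cd8a was at 3.37 CPM in resting wild-type and 13.4 CPM in resting 3'RR deletion cells, but at 0 and 0.0372 CPM after stimulation. C1qc had 0 CPM in every stimulated library. Others were above wild-type in both states, as was Hba-a1 (1077 and 4439.6 CPM resting, 3.49 and 50.3 CPM stimulated). The part of these other cell types in the resting values was not tested. In stimulated cells the macrophage markers summed to 23.1 CPM in 3'RR deletion and 12.7 CPM in wild-type cells, again highest in the former. There the ratios of the 3'RR deletion to wild-type were above 1 for all 10 members, although that of Psmb8 was 0.984 with scaling by library size alone. Stimulated wild-type cells were the lowest of their state for 8 members (31.3% of genes), and also had the lowest sum of B cell markers, 2508 CPM against 2703 to 3130. Sums of most other marker lists were lowest there too. Plasma cell markers stood at 555, 1704, 958 and 1163 CPM, T cell markers at 11.9, 25.2, 19.3 and 24.5 CPM, and red cell markers at 10.4, 154, 43.3 and 244 CPM. The sum of dendritic cell markers went the other way, at 53.4, 52.2, 47 and 53.3 CPM. Flt3 alone made up 50.7, 48.5, 43.6 and 48.5 CPM of it, so this sum mostly follows 1 gene. The part of these other cell types was not tested. Among the members the exceptions were Psmb8, lowest in 3'PAL deletion cells (29.2% of genes), and Nlrc5, lowest in hs3b-hs4 deletion cells (16.8%). Of the stimulated libraries 3'PAL deletion was the highest for 6 members (32.2% of genes) and 3'RR deletion for 4 (23.8%).

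Genotypes lacking hs3b and hs4 (3'RR and hs3b-hs4 deletion) were compared with those that kept them (wild-type and 3'PAL deletion) in a fit with 4 groups of 2 libraries, in which different genotypes serve as replicates. No gene at all was called (0% of those tested) in resting cells, in stimulated cells or for the difference in stimulation between both kinds of genotype (edgeR; 869, 394 and 307 genes at an unadjusted p under 0.05, or 5.88%, 2.66% and 2.08%; 74, 7 and 2 called by DESeq2, no member among them). Of the members, 1 had an unadjusted p under 0.05 in resting cells, Psmb10 at 0.40 ± 0.118 (edgeR adjusted p = 0.80), and none in the other tests. In simulated counts with a smaller spread than the data, this edgeR fit called 11% of 1.5-fold changes in resting cells. H2-K1 was at 0.19 ± 0.295 in resting and -0.04 ± 0.295 in stimulated cells. Member medians were 0.19 in resting cells, 0.03 in stimulated cells and -0.20 for the difference, against 0.04, 0.01 and -0.03 over all genes.

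The members varied together across libraries once the mean of each state was taken out. Their mean was at 0.30 on the log2 scale in resting 3'RR deletion cells and between -0.11 and -0.09 in the other resting libraries, and at -0.23, 0.12, -0.05 and 0.16 in stimulated wild-type, 3'RR, hs3b-hs4 and 3'PAL deletion cells. The Pearson correlation of each member with the mean of the other 9 over the 8 libraries ran from 0.945 for Tap1 to 0.544 for Psmb8 and 0.54 for Nlrc5; with only 8 points that share their libraries and depth, these values are a description. Nlrc5 correlated at 0.372 with H2-K1, 0.493 with H2-D1 and 0.6 with B2m. Its lowest values were 0.2 with Tap2 and 0.204 with Tapbp, and its highest was 0.706 with Psmb8. Of 6446 well expressed genes outside the members, the 5 most like the members' mean were Ap3d1 (0.971), a subunit of the AP-3 vesicle coat, Hdac10 (0.968), Jak2 (0.963), Slc28a2 (0.958) and Itgb3 (0.958). Most like Nlrc5 were Fam160b1 (0.993), Phf23 (0.978), the pseudogene Rps13-ps4 (0.978), Rbbp8 (0.969) and Mcl1 (0.963). As the highest of 6446 genes over 8 libraries, these correlations are a description too. Some of the genes hardly varied, with an SD on the log2 scale of 0.0635 for Ap3d1 and 0.081 for Jak2, against 0.274 for Slc28a2.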

How the data were processed

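RNA of 8 pooled B cell samples was sequenced from stranded, ribosome-depleted libraries, per the labels. The deposited gene table holds raw counts, which the authors made with STAR 2.4.0a and featureCounts of Subread 1.4.6-p1 on GRCm38 (mm10), per the submitters' processing notes. The deposited transcript tables hold estimated counts and TPM that the authors made with kallisto 0.42.3, per the same notes; SAMtools and bedtools are also named there. Neither the annotation version nor the strand setting is recorded in the labels. The TPM values stand under shifted annotation headers, and those columns were read by content.

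Total counts were 17883683 to 28785192, so 3 counts correspond to 0.106 to 0.156 CPM; 1 entry without a name (0.00621 to 0.0342% of counts) and 92 spike-in entries were left out. Counts were scaled by TMM (factors 0.943 to 1.08) in edgeR 4.0.16 (R 4.3.3), and filterByExpr kept 14789 genes. The model of genotype and state left 3 residual degrees of freedom, with a biological coefficient of variation of 16%; that of 4 groups left 4, with 25.8%. Genotype pairs the states, since each gave 1 library per state. Adjusted p-values are Benjamini-Hochberg over the 14789 genes, called under 0.05; where different genotypes serve as replicates, they measure the spread between these libraries. DESeq2 1.42.0, RLE factors, library size alone, no filter, kallisto counts rounded to whole numbers, leaving out libraries and a fit without genotype were the alternatives. With genotype as a term, a wild-type stimulated library without its resting pair adds nothing to the change with stimulation. For stimulation, leaving out the wild-type resting library is therefore nearly the same as leaving out both wild-type libraries. CPM intervals are exact Poisson, and ratio intervals exact conditional binomial, at 95%. A ratio past 2-fold was judged on log2(CPM + 1) with at least 10 CPM in the higher library. The code was tested on simulated counts with a coefficient of variation of 16%. Of 1.5-fold changes, 40% were called for stimulation, 18% for the 3'RR deletion and 11% for lacking against kept in resting cells. Of 2-fold changes, 99%, 71% and 69% were called. Each simulation changed 100 genes per size among 14380 to 14405, whereas 69.7% of genes were called for stimulation in the data. The adjustment is stricter where few genes change, so the shares for stimulation do not describe that test in the data. The data of the 4-group fit spread more, at 25.8%, so its simulated shares may be too high.

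The members and the 18 lists (members, 7 lists of pathway genes and 10 of cell type markers) were chosen with earlier results of these data known. All members are named; of other lists the 4 genes with the lowest adjusted p for stimulation, genes against the rest where 5 or fewer, and for a deletion every called list gene where 5 or fewer. Genes named as alike are the 5 with the highest correlation among genes whose mean log2 CPM is 4 or more and whose symbol is no clone name. Psmb5, Psmb6 and Psmb7 form a list of 3. Promoters were read with Python 3.11.15 and aligned with Biopython 1.88; figures were drawn with matplotlib 3.10.9.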

Additional observations from a re-analysis of the deposited data

Results flagged for a closer look

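B2m and Tap2 moved one way in some genotypes and the other way in 3'PAL deletion cells. Stimulated over resting, B2m was 0.693, 0.854, 0.91 and 1.03 in the order wild-type, 3'RR, hs3b-hs4 and 3'PAL deletion (counting interval of the last 1.01 to 1.05; 0.977 with RLE factors). Tap2 was 0.838, 0.787, 0.895 and 1.14. With 1 library per genotype and state the difference between genotypes was not tested. None of 20 sets of 4 libraries (10 members in each state) held a library beyond Dixon's 95% critical value.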

How the results depend on the processing

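The 7 of 10 members called for stimulation became 4 with kallisto counts, 4 without the wild-type resting library, and 3 to 6 when both libraries of a genotype were left out in turn; the fit without the replicate block (state alone, without genotype) called 5, losing H2-K1 (edgeR adjusted p = 0.05) and Nlrc5 (0.088). Psmb8 and Psmb9 were called in each setting. Over the members in all 7 tests, 20 alternatives lost a call, 1 gained one (Tap2) and no called value changed sign; why the calls changed was not tested. The highest over the lowest library of the summed members was 1.76 with library size alone (1.71 with TMM). No setting called a member for a deletion. Counts over all genes moved more: for the 3'RR deletion 279 genes became 657 without a filter, 527 with DESeq2 and 117 without the wild-type resting library; for the hs3b-hs4 deletion 20 became 189, 186 and 5, and 35 with kallisto, with 8 to 30 when a genotype was left out; for the 3'PAL deletion 76 became 313, 257 and 3, with 41 to 102 when a genotype was left out. For genotypes lacking against keeping hs3b and hs4, 0 became 71 without a filter and 74 with DESeq2 in resting, and 8 and 7 in stimulated cells (1 with library size alone); without the hs3b-hs4 deletion libraries it became 5 and 11. A test against wild-type could not be fitted without the wild-type libraries. Of 180 within-state ratios under other scalings or counts, 57 lay outside the counting interval and 8 on the other side of 1.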
